A study of Homo sapiens with 6 samples.

Results

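CTCF-only regions are places where a CTCF peak was listed in Calu3 and no BRD8 peak was listed in Calu3 or in 16HBE14o-. They were found by pooling 3 lists of ChIP-seq peaks (chromatin immunoprecipitation followed by sequencing), joining peaks that overlapped by at least 1 bp, and keeping the joined regions made of CTCF peaks alone. There were 7567 of them among 21110 joined regions, and they made up 47.3% of the 15993 regions with CTCF (95% exact interval 46.5 to 48.1%). Members were thus chosen by the listed peak positions alone. The remaining 8426 CTCF regions carried BRD8: 3542 had it in both lines, 2235 in Calu3 only and 2649 in 16HBE14o- only. Calu3 is a lung adenocarcinoma line and 16HBE14o- a bronchial epithelial line, both untreated and grown in the same serum-containing medium. The 6 samples were 2 replicates each of CTCF in Calu3, BRD8 in Calu3 and BRD8 in 16HBE14o-, and the authors combined each pair into 1 list by the irreproducible discovery rate, a filter for peaks found with similar rank in each of them. The lists held 16413 CTCF, 9769 Calu3 BRD8 and 9505 16HBE14o- BRD8 peaks on hg19.

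CTCF reads a long DNA motif with a row of zinc fingers. Together with cohesin it holds the bases of chromatin loops, and it marks many insulators and domain boundaries. BRD8 carries a bromodomain, a module that binds acetylated lysines, and belongs to the NuA4/TIP60 complex, which acetylates histones and exchanges histone variants. CTCF sites are largely shared between cell types, so a map from one epithelial line also covers many sites of another.

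With 1 combined list per experiment there is no spread between samples, so every comparison below is a description of these lists and none has a test. Intervals of shares are exact Clopper-Pearson intervals at 95%, and those of a difference between shares are normal approximations. In comparing processing alternatives, intervals of medians came from the ranks of the values, and that of a ratio from the bounds of its medians. All cover counting error only, and the depth behind the lists is unknown. The absence of BRD8 from a region chose the members and is not a result about them. It means that no BRD8 peak passed the authors' threshold there, not that BRD8 was absent, and CTCF in 16HBE14o- was not analysed here.

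CTCF-only regions had weaker CTCF peaks than CTCF regions with BRD8. Their median CTCF signal, the authors' own peak value on a scale they do not state, taken at the strongest peak of a region, was 27.6 (quartiles 21.3 and 41.7), against 49.2 (quartiles 30.0 and 130.5) in CTCF regions with BRD8, a ratio of 0.560. Regions with BRD8 in Calu3 alone had a median of 36.0, those with BRD8 in 16HBE14o- alone 42.8, and those with BRD8 in both lines 80.7. The ranges overlapped almost entirely: CTCF-only signals ran from 5.68 to 281.8 and those of regions with BRD8 from 5.65 to 388.2. In all, 1453 CTCF-only regions (19.2%) lay above the median of the regions with BRD8.

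The link to signal was graded, as CTCF regions divided into signal deciles show. CTCF-only regions made up 82.2% of the weakest decile (80.3 to 84.1%), 57.0% of decile 4, 44.1% of decile 7, 22.3% of decile 9 and 5.50% of the strongest (4.43 to 6.73%). Between deciles 6 and 8 the share moved little, at 44.3%, 44.1% and 39.8%, and it was far lower in the last pair, where regions with BRD8 in both lines took 37.2% and 64.1%. The strongest decile held 88 CTCF-only regions. Set against 1 BRD8 list alone, its share of CTCF regions without BRD8 was 26.4% for Calu3 and 15.2% for 16HBE14o-. Of the 100 CTCF regions of highest signal 1 was CTCF-only, and of the top 1000 it was 35.

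**Figure D1:**
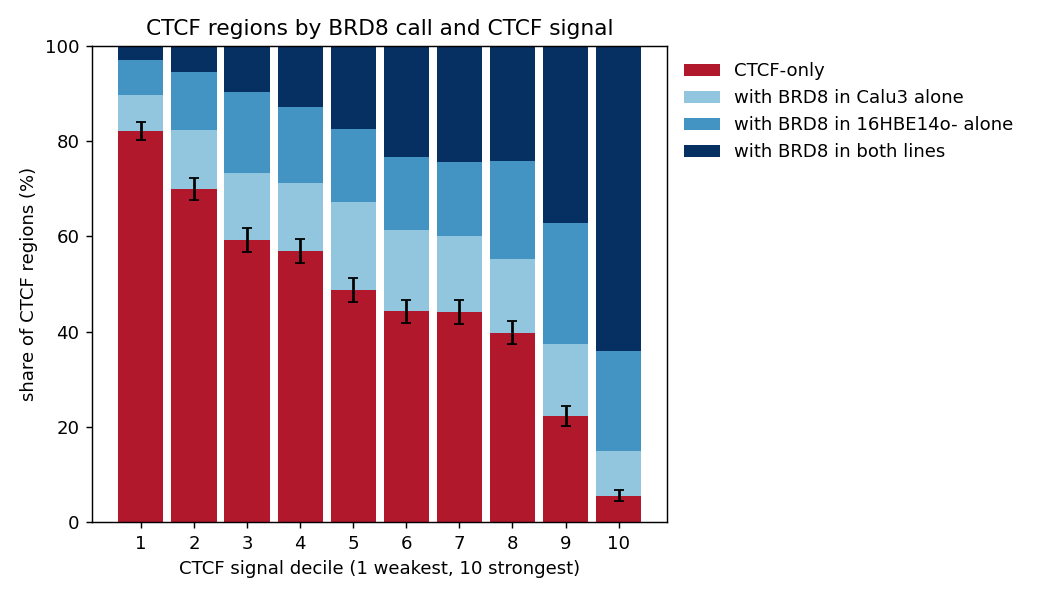
Share of CTCF regions (vertical axis, %) that were CTCF-only or carried BRD8 in 1 or both lines, by decile of CTCF signal from weakest (1) to strongest (10); black bars are exact 95% intervals of the CTCF-only share. The CTCF-only share is 82.2% in the weakest decile and 5.50% in the strongest.

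The authors' peak score, which has a ceiling of 1000, gave the same order. It stood at the ceiling in 47.4% of CTCF-only regions (46.2 to 48.5%) and in 76.9% of CTCF regions with BRD8 (76.0 to 77.8%). Within a signal decile the 2 groups were close, with 79.6% of CTCF-only regions and 80% of regions with BRD8 at the ceiling in decile 5. Peak shape also followed signal. The strongest peak was of the list's most common width, 290 bp, in 88.4% of CTCF-only regions and 60.3% of regions with BRD8, but the medians of decile 9 were 181.5 bp and 177 bp.

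Most CTCF-only regions held a single peak. More than 1 CTCF peak was joined in 238 of them (3.15%), against 168 CTCF regions with BRD8 (1.99%), and 137 of the 238 were in the weakest decile, where the shares were 10.4% and 7.04%. The regions with 3 peaks and the highest signals lay in 2q14.2 (chromosome 2, 120770410 to 120771182, 773 bp, signal 19.2), 17q21.32 (chromosome 17, 45973525 to 45974221, signal 19.0) and 15q21.3 (chromosome 15, 56035173 to 56035863, signal 12.1). All 3 lie in the weakest decile. Together CTCF-only regions covered 2.13 Mb on 23 chromosomes.

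The strongest CTCF-only region lay in 3q29 (chromosome 3, 196255646 to 196255927). Its CTCF signal of 281.8 ranked 96 of all CTCF regions, and the nearest BRD8 peak was 80.2 kb away in Calu3 and 80.3 kb away in 16HBE14o-. The next was in 1q22 (chromosome 1, 155214508 to 155214750, signal 266.5), 5.78 kb from BRD8 in Calu3 and 5.79 kb in 16HBE14o-.

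Other strong CTCF-only regions had BRD8 nearby in Calu3 only. In 18q21.1 (chromosome 18, 47721517 to 47721778, signal 246.9) BRD8 was 23.3 kb away in Calu3 and 624.5 kb away in 16HBE14o-. A second region of the same band (45534552 to 45534814, signal 232.6) stood 14.2 kb and 258.7 kb from the Calu3 and 16HBE14o- peaks. A second region of 3q29 (chromosome 3, 193855653 to 193855898, signal 233.4) was 2.57 kb from Calu3 BRD8 and 177.7 kb from 16HBE14o- BRD8. In these 3 cases the nearest 16HBE14o- peak was more than 10 times as far away as the nearest Calu3 peak. All lie on arms where 16HBE14o- BRD8 was scarce at CTCF regions in general. It was at 14.8% of them on 18q and 24.4% on 3q, against 38.7% over all CTCF regions. Calu3 BRD8 was at 27.2% and 46.9%, against 36.1%. The strongest region, also on 3q, was 80.2 kb from Calu3 BRD8 and 80.3 kb from 16HBE14o- BRD8. A link between the shares of the arms and these distances was not tested.

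The rest of the 10 strongest lay in 22q13.2 (chromosome 22, 42322084 to 42322362, signal 253.9), 12q24.31 (chromosome 12, 125815528 to 125815754, signal 243.0), 1q25.3 (chromosome 1, 180992047 to 180992394, signal 240.5), 7p14.3 (chromosome 7, 32982699 to 32982960, signal 237.1) and 5q13.3 (chromosome 5, 75698896 to 75699157, signal 234.6). Their nearest BRD8 peaks were 14.9 to 146.4 kb away for 22q13.2, 1q25.3, 7p14.3 and 5q13.3, and 147.4 kb for 12q24.31. The 5q13.3 region had another CTCF region 0.713 kb away. At the other end of the list, the 3 weakest CTCF-only regions had signals of 5.68 in 12p13.2 (chromosome 12, 12487846 to 12488135), 5.70 in 7q34 (chromosome 7, 139477673 to 139477962) and 5.73 in 4q24 (chromosome 4, 102269326 to 102269615). The authors' scores of these 3 were 554, 570 and 548, near the lowest score in the list, 540.

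CTCF-only regions lay a median of 34.5 kb from the nearest BRD8 peak of either list (quartiles 9.19 and 105.3 kb). By list, the medians were 56.5 kb to Calu3 BRD8 and 59.4 kb to 16HBE14o- BRD8, and the closer peak was a Calu3 peak for 63.0% of regions. The Calu3 peaks are wider and slightly more numerous. A BRD8 peak stood within 1 kb of 571 CTCF-only regions (7.55%): 235 had one in Calu3 only, 145 in 16HBE14o- only and 191 in both lines. The median CTCF signal of these 571 was 26.5, close to the 27.6 of the other 6996.

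For a like measure in both groups, the distance to the nearest other joined region with BRD8 was taken. Its median was 34.5 kb for CTCF-only regions and 25.9 kb for CTCF regions with BRD8, and it was larger for CTCF-only regions in 9 of 10 signal deciles. The exception was the weakest decile, with 26.7 kb against 44.1 kb. In the strongest decile the medians were 47.5 kb and 18.8 kb, so that strong CTCF-only regions stood further from BRD8 elsewhere than strong regions with BRD8 did. More than 1 Mb lay between the region and any other BRD8 for 133 CTCF-only regions (1.76%) and 43 regions with BRD8 (0.510%).

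**Figure D2:**
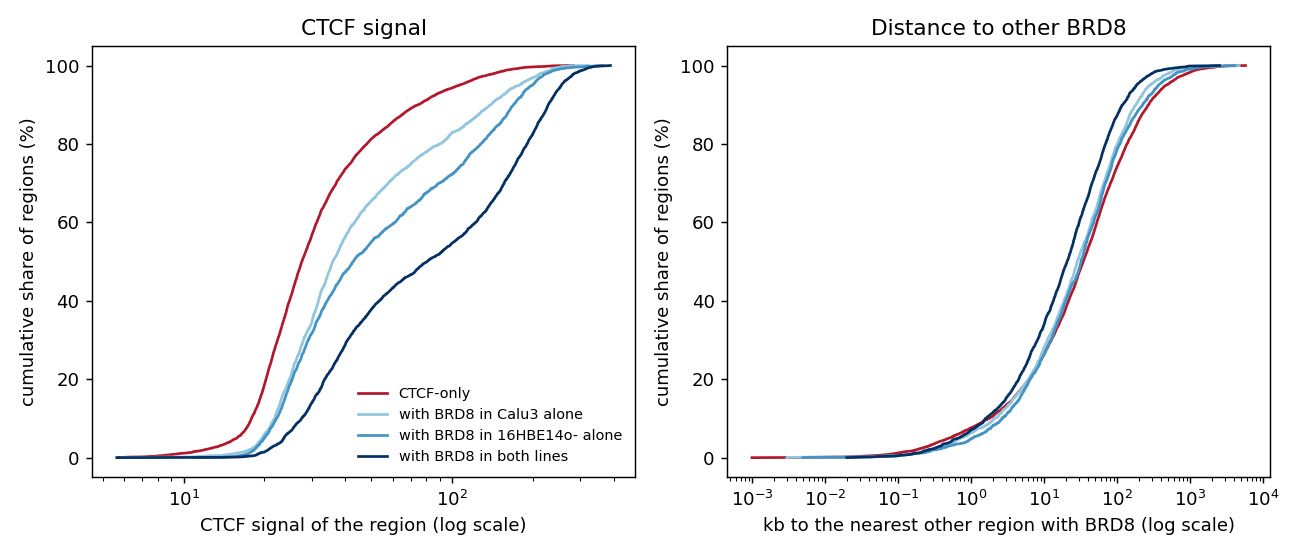
Cumulative share of regions (vertical axes, %) by CTCF signal (left, log scale) and by distance in kb to the nearest other region with BRD8 (right, log scale), for CTCF-only regions and the 3 classes of CTCF regions with BRD8. The CTCF-only curve lies furthest left in signal, with a median of 27.6, and on the right it crosses 50% at 34.5 kb.

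Some CTCF-only regions were remote from all BRD8. Of those at or above the median CTCF-only signal, the farthest lay in 6q12 (chromosome 6, 64062962 to 64063251, signal 34.1), 5775 kb from BRD8. It was followed by 9p11.2 (chromosome 9, 44227307 to 44227596, signal 42.2, 5555 kb), 13q21.32 (chromosome 13, 67990492 to 67990781, signal 54.1, 5058 kb), 8q23.2 (chromosome 8, 110656806 to 110657095, signal 28.6, 3374 kb) and Xq27.3 (chromosome X, 143077462 to 143077751, signal 33.3, 3077 kb). In each of the 5 the nearest BRD8 peak was in the 16HBE14o- list. All but 8q23.2 also stood far from other CTCF, at least 659.2 kb from the next CTCF region.

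The 1 bp rule has members close on both sides of it. The CTCF-only regions nearest to a BRD8 peak stood 1 bp from it in 2p25.1 (chromosome 2, 9953634 to 9953923, signal 35.8), 2 bp in 5p15.33 (chromosome 5, 473184 to 473473, signal 6.23), 3 bp in 17q21.31 (chromosome 17, 41400193 to 41400482, signal 30.2), 3 bp in 3q25.31 (chromosome 3, 156921808 to 156922097, signal 8.15) and 5 bp in 20q13.13 (chromosome 20, 48505434 to 48505723, signal 21.9). Regions left out by the smallest overlaps were in 20q13.33 (chromosome 20, 62339183 to 62340145, overlap 2 bp, signal 26.4), 8q24.3 (chromosome 8, 141520977 to 141521735, 7 bp, signal 11.1), 12q24.31 (chromosome 12, 123527995 to 123528752, 8 bp, signal 61.1), 2q24.3 (chromosome 2, 166810250 to 166811005, 10 bp, signal 52.3) and 7p14.2 (chromosome 7, 35839948 to 35840921, 13 bp, signal 47.2). The closest BRD8 peak was a Calu3 peak in all 10. Such borderline cases were few, with 41 CTCF-only regions within 50 bp of BRD8 and 25 CTCF regions with BRD8 joined by an overlap of 50 bp or less. A further 14 CTCF peaks met no BRD8 peak themselves but were joined to a region that had one.

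The CTCF-only share differed between chromosomes. It was highest on chromosomes 4 (60.4%, 189 of 313 CTCF regions), 18 (58.1%, 180 of 310) and X (55.3%, 136 of 246), and lowest on 20 (38.3%, 260 of 678), 14 (39.5%, 210 of 532) and 1 (40.8%, 570 of 1396), beside 47.3% over all CTCF regions. Among 41 chromosome arms with at least 50 CTCF regions, it ran from 25% to 66.0%, and the whole interval lay above 47.3% in 9 arms and below it in 8. Neighbouring regions are not independent, so these intervals are too narrow.

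The arms at the high end were 18q with 165 of 250 regions (66.0%, 59.8 to 71.9%), 4q with 134 of 207 (64.7%, 57.8 to 71.2%) and 10p with 74 of 118 (62.7%, 53.3 to 71.4%). At the low end were 18p with 15 of 60 (25%, 14.7 to 37.9%), 20q with 230 of 609 (37.8%, 33.9 to 41.8%) and 14q with 210 of 532 (39.5%, 35.3 to 43.8%). The arms of chromosome 18 thus stood at opposite ends of the range. The share that an arm's CTCF signal deciles would give at the rates of the whole list varied less, from 40.3% to 54.8%. It was 54.8% for 18q, 51.5% for 4q and 49.5% for 10p, and 48.1% for 18p, 47.3% for 20q and 47.3% for 14q.

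The lines contributed unequally to these arms. Over all CTCF regions 36.1% had Calu3 BRD8 and 38.7% had 16HBE14o- BRD8. On 10p, 33.9% of CTCF regions had Calu3 BRD8 and 6.78% had 16HBE14o- BRD8, and on 18q the shares were 27.2% and 14.8%. On 4q the order was the other way, 13.5% in Calu3 and 30.0% in 16HBE14o-. On 18p they were 30.0% and 71.7%, on 20q 44.5% and 56.7%, and on 14q 33.1% and 56.0%. By the rule, a high CTCF-only share means that few CTCF regions had BRD8 in either line. On 10p, 18q and 4q both lines were below their shares over all CTCF regions. The shortfall was larger for 16HBE14o- on 10p and 18q and for Calu3 on 4q. The copy number of the arms was not measured, and its part in these shares was not tested.

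**Figure D3:**
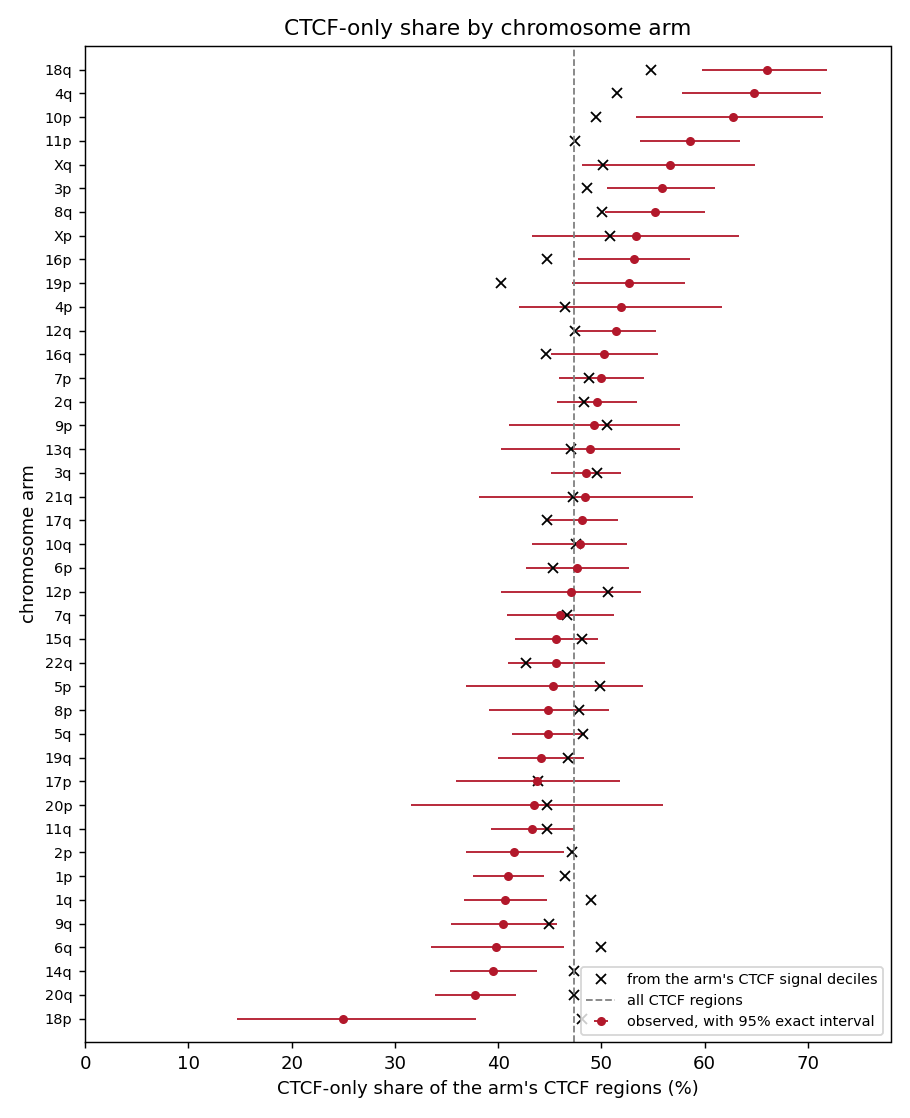
CTCF-only share of the CTCF regions of each chromosome arm (horizontal axis, %) for the 41 arms with at least 50 CTCF regions; points are the observed shares with exact 95% intervals, crosses the shares given by each arm's CTCF signal deciles, and the dashed line the 47.3% of all CTCF regions. Observed shares run from 25% on 18p to 66.0% on 18q, and crosses only from 40.3% to 54.8%.

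Strong CTCF sites without BRD8 were also unevenly placed. Over the strongest 2 signal deciles 13.9% of CTCF regions were CTCF-only (444 of 3199). On 3q the share was 28.4% (33 of 116, 20.5 to 37.6%), where the deciles would give 11.9%, and on 11p it was 26.1% (23 of 88, 17.3 to 36.6%) beside 13.9%. On 20q it was 2.34% (3 of 128, 0.486 to 6.70%) beside 12.4%. These arms were picked after their values were seen. Over all signals 3q had 48.5%, beside 49.6% from its deciles, and in the weaker 8 deciles 51.6%, beside 55.4%.

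The share also varied along the chromosomes. Within 2 Mb of a chromosome end 55.0% of CTCF regions were CTCF-only (640 of 1164, 52.1 to 57.9%), and 46.7% of those over 20 Mb away (45.7 to 47.7%). The regions near the ends had the higher median CTCF signal, 43.6 against 33.4, and by their signal deciles would give 44.8%. Giemsa-negative bands, which are on the whole gene-rich and early replicating, held 59.5% of CTCF-only regions and 61.9% of CTCF regions with BRD8, a difference of -2.33 percentage points (-3.85 to -0.817). In the upper 50% of each list by signal the interval of this difference included 0, as it did in the upper 50% of the CTCF list alone. Within signal deciles the order was mixed, with CTCF-only regions higher in 5 of 10. In the darkest bands, which tend to be gene-poor, 58.4% of CTCF regions were CTCF-only (513 of 878, 55.1 to 61.7%), with 52.2% from their deciles.

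The nearest CTCF neighbour was CTCF-only more often for CTCF-only regions than for CTCF regions with BRD8. The nearest other CTCF region was itself CTCF-only for 50.3% of CTCF-only regions (49.1 to 51.4%) and for 44.4% of CTCF regions with BRD8 (43.3 to 45.4%), and the order was the same in 10 of 10 signal deciles. Another CTCF region lay within 1 kb of 9.21% of CTCF-only regions and 5.64% of regions with BRD8, again in the same order in 10 of 10 deciles. CTCF regions with BRD8 are wider, because BRD8 peaks are joined in, and can take up close CTCF peaks that would otherwise count as neighbours. More than 1 CTCF peak was held by 168 CTCF regions with BRD8 (1.99%) and by 238 CTCF-only regions (3.15%). What part such joining has in this second difference was not tested.

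Ordered along the chromosomes, CTCF-only regions formed 3764 unbroken runs with no CTCF region with BRD8 between them. A run of 1 made up 52.1% of them and the mean length was 2.01 regions. Runs of 5 or more were 251 in number and held 1634 regions (21.6%), and 17 runs had 10 or more. A share of 47.3% gives runs in any order of the regions, and the lengths it alone would give were not computed. Some of the long runs were wide and sparse, and others short and crowded.

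The longest run stood apart from the others. In 18q23, 30 CTCF-only regions followed each other within 239.8 kb (chromosome 18, 75787526 to 76027276), a median of 5.06 kb apart. Their signals ran from 7.36 to 29.7 with a median of 17.9, and 18 of the 30 were in the weakest decile. The next CTCF region lay 175.5 kb before the run with a signal of 321.3, and 979.6 kb after it with a signal of 149.2, and both carried BRD8. Inside the run the Calu3 list had 8 BRD8 peaks, ranked 6754 to 9517 of 9769 and overlapping no CTCF peak, and the 16HBE14o- list had 0. So the run is free of BRD8 at its CTCF peaks but not between them. Without it, 18q had 135 of 220 CTCF-only regions (61.4%, 54.6 to 67.8%).

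**Figure D4:**
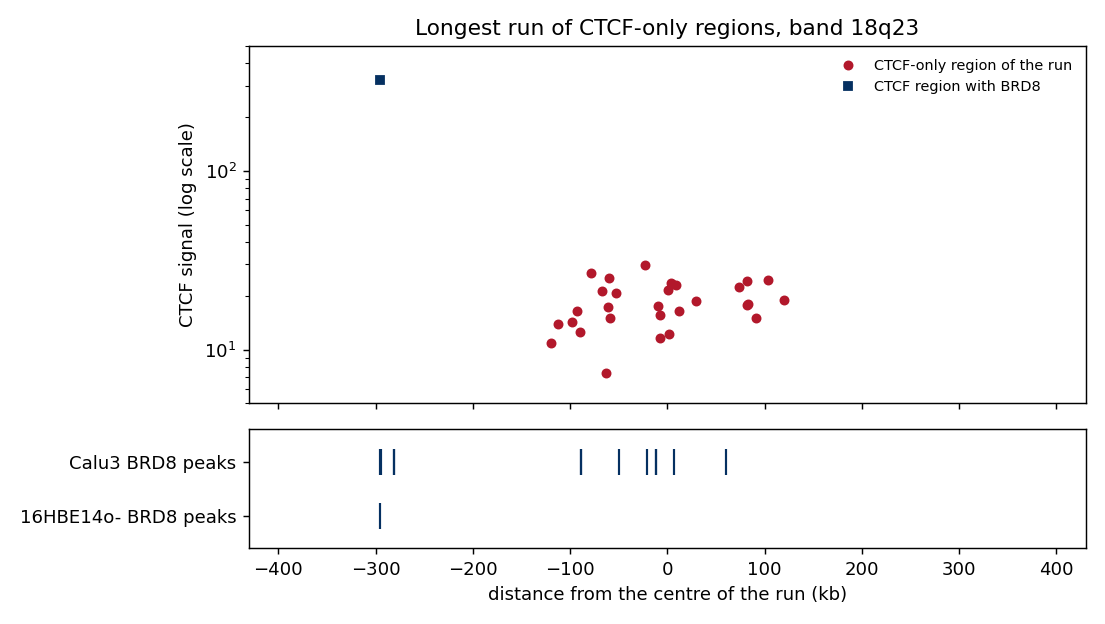
CTCF signal (upper vertical axis, log scale) of the 30 CTCF-only regions of the 18q23 run and of the neighbouring CTCF region with BRD8, and positions of BRD8 peaks (lower rows), by distance in kb from the centre of the run. The 30 regions lie between 7.36 and 29.7 inside 239.8 kb, among 8 Calu3 BRD8 peaks, with empty stretches on both sides.

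The other long runs differed in spacing. In 3p14.3, 17 regions spread over 2959 kb (chromosome 3, 55519160 to 58477809) with a median signal of 39.2 and a highest of 226.8, and in 11p14.1 to 11p13 13 regions over 3703 kb (chromosome 11, 27716577 to 31419122), with no BRD8 peak of either line inside. In 12q24.33, 13 regions lay within 632.9 kb (chromosome 12, 133125162 to 133758041, median signal 32.3), and in 17q12 13 within 305.9 kb (chromosome 17, 34987702 to 35293573, median signal 22). The 16HBE14o- list had no BRD8 peak inside any of these 4 runs, and the Calu3 list had 7 in 3p14.3 and 1 each in 12q24.33 and 17q12. A further run of 13, in 18q11.2 to 18q12.1, was the widest of that length at 7809 kb (chromosome 18, 21269268 to 29077957) and had 3 Calu3 and 4 16HBE14o- BRD8 peaks between its CTCF regions. Over the whole of 12q24.33, 41 of 52 CTCF regions were CTCF-only (78.8%), 11 had Calu3 BRD8 and 0 had 16HBE14o- BRD8.

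Crowding was then followed over the whole list, a measure chosen after the data were seen. CTCF-only regions were most frequent where CTCF regions were very sparse or very dense. With no other CTCF region in a 250 kb window centred on it the share was 55.9% (53.9 to 57.9%), with 5 to 8 others it was 43.3% (41.6 to 45.0%), and with 17 or more it was 65.5% (169 of 258, 59.4 to 71.3%). By their signal deciles, the regions with no other in the window would give 52.0%, those with 5 to 8 others 44.5% and the dense regions 54.1%. Without 18q23 the dense share was 61.3% (141 of 230, 54.7 to 67.6%).

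**Figure D5:**
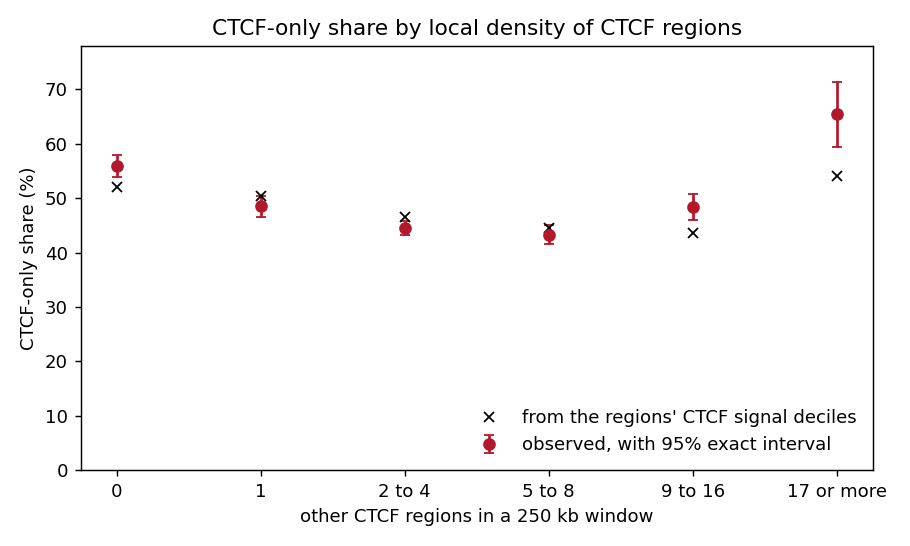
CTCF-only share (vertical axis, %) by the number of other CTCF regions in a 250 kb window, with exact 95% intervals; crosses are the shares given by the regions' CTCF signal deciles. The share is 55.9% with none, 43.3% with 5 to 8 and 65.5% with 17 or more.

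As over the whole list, most of the stronger CTCF sites in dense places had BRD8 and most of the weaker ones did not. Of the 94 dense regions in the upper 5 signal deciles 27.7% were CTCF-only (18.9 to 37.8%), and of the 164 in the lower 5 it was 87.2% (81.1 to 91.9%). Over all CTCF regions the share fell from 82.2% in decile 1 to 48.7% in decile 5, and from 44.3% in decile 6 to 5.50% in decile 10. The dense shares each pool 5 deciles, and a share pooled alike over all CTCF regions was not computed. The dense 27.7% thus cannot be placed by these values. The dense 87.2% lay above each of the lower 5 deciles, but its interval reached below the 82.2% of decile 1. Of 70 dense regions in the weakest decile 68 were CTCF-only (97.1%), against 76.8% of the 267 weakest-decile regions with no other CTCF region in the window. The dense regions lay mainly in 17q12 (46 CTCF-only of 71), 20q13.33 (31 of 53), 8q24.3 (18 of 29), 18q23 (28 of 28), 7p22.3 (16 of 24) and 3q27.1 (11 of 18). The median CTCF signal of dense regions in these bands was between 17.6 and 32.4, below the 34.9 of all CTCF regions.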

How the data were processed

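The deposited files were 3 narrowPeak lists with hg19 coordinates, per the file headers, each made by the authors from 2 replicates by the irreproducible discovery rate, per the series' design text. The aligner, peak caller, control library and thresholds are not given in the sources used here. The authors' signal column ranked CTCF peaks within their list only; its scale is not stated. The authors' score (540 to 1000) was used as deposited, as was the other kind of number that places each summit. A further deposited score, in the column for q-values, was not used.

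Peaks of the 3 lists were joined where they overlapped by 1 bp or more, and a region took the signal, score and summit of its strongest CTCF peak. Deciles are of the 15993 CTCF regions. The share "from deciles" of a place is the mean, over its CTCF regions, of the list-wide CTCF-only share of their deciles. Distances to CTCF are between summits, and distances to BRD8 are the bases between a region and a peak. Coordinates count from 1. The alternatives with a reciprocal overlap or a summit distance used CTCF peaks joined with each other only. Python 3.11.15, numpy 2.4.6, pandas 2.3.3, scipy 1.17.1 and matplotlib 3.10.9 were used; bedtools 2.31.1 gave identical numbers of regions and members, and the code was tested on simulated data. Chromosome lengths came from GenomeInfoDb 1.38.1 and bands from circlize 0.4.16. No genome or gene annotation of hg19 was used, so regions are named by band and position. Named regions follow a rule: the 10 strongest, 3 weakest, 5 farthest from BRD8 in the upper 50%, 5 on each side of the overlap rule, 5 longest runs, up to 3 with most peaks, and the 3 highest and lowest chromosomes and arms. The members and measures were chosen with earlier results of these data known.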

Additional observations from a re-analysis of the deposited data

How the results depend on the processing

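CTCF-only regions had the lower median CTCF signal under all 11 alternatives run. They also had the lower share of Giemsa-negative bands, and a higher share in the weakest than in the strongest decile, under all of them. For the Giemsa-negative share, summing the signal of a region is no test, because it changes no membership. The interval of the Giemsa-negative difference included 0 in the upper 50% of each list (-1.18 percentage points, -3.27 to 0.904) and in the upper 50% of CTCF alone (-1.97, -4.22 to 0.283). Of 88 recomputed values 50 stayed within the counting interval (for numbers of regions, within 1.5 times) and 38 moved beyond it. The 50 include values that summing the signal of a region leaves unchanged by construction. Given in the order CTCF-only share of CTCF regions, share in the strongest decile, share in the weakest, median distance to BRD8 and ratio of median signals, the values that moved are as follows. With the Calu3 BRD8 list alone they were 63.9%, 26.4%, 89.7% and 60.1 kb, and with the 16HBE14o- list alone 61.4%, 15.2%, 89.7%, 61.0 kb and 0.493. With a reciprocal overlap of 50% the share was 52.9%, that in the strongest decile 10.4%, the distance 26.4 kb and the ratio 0.658. With summits within 100 bp the share was 49.3%, that in the weakest decile 84.6% and the distance 30.9 kb. Counting BRD8 within 1 kb gave 43.7%, 74.4% in the weakest decile, 40.8 kb and 0.593. Peaks of 200 bp gave 48.6% and 85.7% in the weakest decile. The upper 50% of each list left 3881 CTCF-only regions, 7.82% of the strongest and 64.3% of the weakest decile, 55.9 kb and 0.518. The upper 50% of CTCF alone left 2577, or 31.6%, with 3.30%, 46.8% and 32.8 kb. The median CTCF signal of CTCF-only regions, 27.6 in the report, moved to 29.9 with the Calu3 BRD8 list alone, 29.4 with the 16HBE14o- list alone, 29.3 with a reciprocal overlap, 27.1 with peaks of 200 bp, 57.6 in the upper 50% of each list and 53.9 in that of CTCF alone. Fewer BRD8 peaks, a stricter rule or a list cut to its stronger CTCF peaks change these values by construction.

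Restricting to autosomes and leaving out densely spaced CTCF regions, the latter chosen after the data were seen, moved none of the 8 results. Summing the signal of a region changes no membership. The number of CTCF-only regions (7567) and their share (47.3%) are therefore fixed under it. So are the median distance to BRD8 (34.5 kb) and the Giemsa-negative difference (-2.33 percentage points). The values that depend on signal stayed within their intervals: 5.44% in the strongest decile, 81.4% in the weakest, median 27.9 and ratio 0.561. The alternatives for sequence letters and for start sites were not run, because no hg19 genome or annotation was used here. Leaving out a replicate was not done, as the lists are combined. No paired analysis was possible because the lists carry no values per replicate.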
